A study of Gallus gallus and Anas platyrhynchos and Coturnix japonica with 11 samples.

Results

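The miR-130, miR-301 and miR-454 family is a set of miRNAs with 1 common seed, the stretch of bases 2 to 8 at the 5′ end. Its members were taken as the miRNAs numbered miR-130, miR-301 or miR-454, passenger strands left out, which gave 6 miRNAs beside 180 others measured: miR-130a, miR-130b, miR-130c, miR-301, miR-301b-3p and miR-454. They were measured by small RNA sequencing of frontonasal prominence (FNP) mesenchyme, the neural crest-derived tissue that builds the upper beak, dissected free of surface ectoderm and forebrain. The embryos were untreated ducks, quails and chickens at Hamburger-Hamilton stage HH25, when the faces of the species differ in shape, and at the earlier stage HH20, when they look alike. Each species and stage had a pool of 40 embryos as its first sample. Duck and chicken alone had another pool, of 5 embryos, so that there were 4 duck samples, 2 quail samples (1 per stage) and 4 chicken samples. The values of 2 sequencing runs were averaged for the smaller chicken pool at HH25.

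A miRNA is cut from a hairpin as a guide strand, which is loaded into Argonaute, and a passenger strand, marked here with an asterisk, which is usually degraded. The seed pairs with target mRNAs, so miRNAs with 1 seed can share targets. In mammals, members of this family are known to act on components of the TGF-β and BMP pathways, and the BMP pathway is one of the signals that shape the beak.

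The sequences below, as the deposited tables give them, show what the members share and where they part, with the seed in capitals.
miR-130b: cAGUGCAAuaaugaaagggcgu
miR-454: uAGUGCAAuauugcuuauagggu
miR-130a: cAGUGCAAuauuaaaagggcau
miR-301: cAGUGCAAuaauauugucaaagcau
miR-301b-3p: cAGUGCAAuaguauugucaaagcau
miR-130c: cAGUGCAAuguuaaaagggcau
No other measured miRNA held this 7-base seed, at bases 2 to 8 or anywhere else. Outside the seed, miR-301 and miR-301b-3p differed by A11G alone, and miR-130a and miR-130c by A10G alone (positions from 1 at the 5′ end, the base of the first-named miRNA first). Seeds that overlap with it belonged to miR-19a and miR-19b, which hold the last 6 bases of the family seed moved 1 base towards the 5′ end, as in miR-19b.
miR-19b: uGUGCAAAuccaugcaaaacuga
These 2 miRNAs had 245 to 956 PMMR (miR-19a) and 836 to 3101 PMMR (miR-19b) over the 10 samples. miR-148a (14295 to 38440 PMMR) and miR-148b (919 to 3284 PMMR) hold the first 6 bases of the family seed, moved 1 base towards the 3′ end.
The chicken genes of all 6 members were matched by name in RefSeq (assembly GRCg7b). On chromosome 15 stand 4 of them, in the order MIR130B, MIR454, MIR301A (the gene of miR-301) and MIR130A, with no other annotated gene between them. MIR301B and MIR130C are neighbours on chromosome 19, inside the span of SKA2P1.

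Libraries held 3097711 to 10894243 reads after adapter removal, and levels are given as PMMR, the reads of a miRNA per 1000000 of those reads. One read was worth 0.0918 to 0.323 PMMR, and the least-read member of any library had 500 reads, so counting error was small beside the differences between samples. The first chicken sample at HH25 stood apart from the others, with 5498 PMMR on the 4 mesenchymal marker miRNAs against 45921 to 125429 PMMR in the other 9 samples. It was also the highest of the 10 samples in the 7 neural marker miRNAs, with 4142 PMMR against 826 to 2133 PMMR. All 5 surface ectoderm markers had a higher mean in duck than in chicken, and their summed level was 417 to 1915 PMMR in duck, 753 to 1287 PMMR in quail and 62.6 to 561 PMMR in chicken. Both endothelial markers also had a higher mean in duck, with a summed level of 24781 to 40678 PMMR in duck, 21774 to 24499 PMMR in quail and 4992 to 30275 PMMR in chicken. All 4 white blood cell and both muscle markers had a higher mean in duck as well, with summed levels of 217 to 691 and 147 to 393 PMMR in duck against 76.3 to 333 and 43.6 to 346 PMMR in chicken. The first chicken sample at HH25 set the low end of chicken for surface ectoderm, endothelium and white blood cells. The other 9 samples had at least 252, 16407 and 178 PMMR there. Whether the means stay higher in duck without that sample was not counted. The other lists were mixed: 3 of 7 neural, 3 of 4 mesenchymal and 1 of 2 red blood cell markers had a higher mean in duck. None of the markers of these lists was at 0 in any sample, and their part in the species differences below was not tested. In such bulk samples, fewer cells of a type and less RNA per cell cannot be told apart.

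miR-130b was the main form of the family in every sample. It made up 66.1% to 80.3% of the summed family reads, and ranked 13 among all miRNAs by its mean level. miR-454 came next with 10.6% to 20.6%, then miR-130a with 4.06% to 8.65%. miR-301, miR-301b-3p and miR-130c each held at most 4.21%. The summed family level was 26932 to 45960 PMMR in the 4 duck samples, 21440 and 26464 PMMR in the 2 quail samples and 15112 to 26830 PMMR in the 4 chicken samples. The highest chicken sample thus fell just under the lowest duck sample. As a share of the reads on all measured miRNAs, the family held 3.54% to 5.40% in duck, 3.58% and 3.59% in quail and 2.11% to 5.02% in chicken, and on this scale duck and chicken overlapped.

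**Figure D1:**
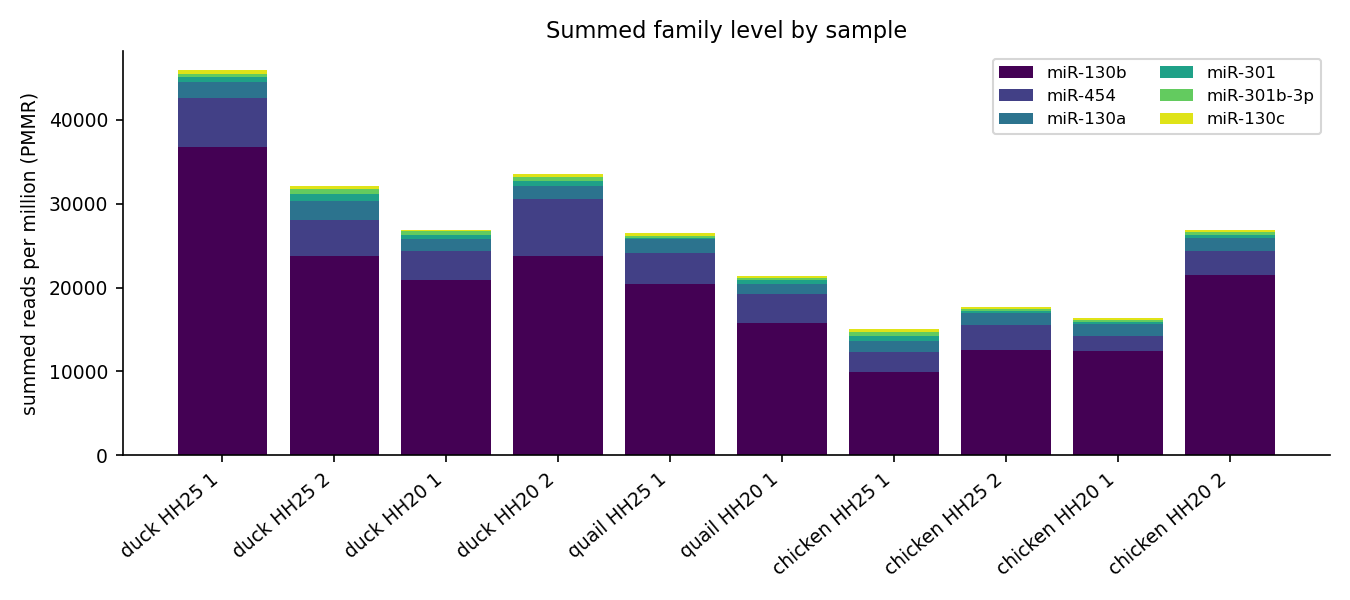
Summed level of the family in each of the 10 samples (PMMR, bars from 0), stacked by member, with duck, quail and chicken from left to right and HH25 before HH20. The chicken sample with the tallest bar, the second at HH20, reached 26830 PMMR, against 26932 PMMR in the lowest duck sample.

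Duck had the higher mean PMMR of every member when set against chicken, the species with a broad bill against the one with a narrow beak. The differences were largest for miR-454 and miR-130b. More of the reads fell on the measured miRNAs in duck libraries (70.0% to 85.1%) than in most chicken libraries (53.5% to 71.5%). Under other settings the log2 difference was as low as 0.62 for miR-130b, 0.061 for miR-130c and 0.013 for miR-130a. No member passed the test over all measured miRNAs, in which limma called 18 miRNAs (9.68%) at an adjusted p under 0.05 in the 8 duck and chicken samples. Of the 6 members 2 had an unadjusted p under 0.05, as had 22.6% of all miRNAs, and limma voom on the recovered reads called 0 of them.

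miR-454 was the 1 member whose duck and chicken samples did not overlap in PMMR. It had 5904 and 4316 PMMR in duck at HH25 and 3462 and 6891 PMMR in duck at HH20, against 2299 and 3044 PMMR in chicken at HH25 and 1841 and 2834 PMMR in chicken at HH20. The lowest duck sample was above the highest chicken sample, a pattern that 10.2% of all miRNAs showed with duck higher. As a share of the reads on all measured miRNAs, duck and chicken overlapped in miR-454. On that scale the first duck sample at HH20 lay below the second chicken sample at HH20. The difference was 1.01 ± 0.33 on the log2(PMMR + 1) scale (SE, n = 4 each; limma adjusted p = 0.085, unadjusted p = 0.0128). When the 2 quail samples were added to the fit, the same difference passed the threshold (limma adjusted p = 0.0449), and miR-454 was then 1 of 29 miRNAs called (15.6%). Its adjusted p in this larger fit was 0.0332 to 0.194 under other settings and 0.0382 to 0.139 when 1 sample was left out, so that the call depended on the setting and on single samples.

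miR-130b, the most abundant member, had 36748 and 23780 PMMR in duck at HH25 and 20911 and 23722 PMMR in duck at HH20, against 9991 and 12540 PMMR in chicken at HH25 and 12436 and 21555 PMMR in chicken at HH20. The groups overlapped through the second chicken sample at HH20 alone. The lowest level of the 10 samples, 9991 PMMR, was in the first chicken sample at HH25, the library that stood apart in its markers. The difference was 0.92 ± 0.34 on the log2(PMMR + 1) scale (SE, n = 4 each; limma adjusted p = 0.13, unadjusted p = 0.0238). With the quail samples in the fit it did not pass (limma adjusted p = 0.0899), but it passed there at 1.18 without the second chicken sample at HH20 (limma adjusted p = 0.0314). With any other sample left out of that fit, miR-130b did not pass. Over all these fits its difference was 0.73 to 1.18. At HH25 alone duck exceeded chicken by 1.40 ± 0.48 (SE, n = 2 each; limma adjusted p = 0.193), where 2.15% of all miRNAs were called, and the difference between the stages was 0.96 ± 0.67 (SE; limma adjusted p = 0.996). At HH20 limma called no miRNA (0%), and 23 miRNAs had an unadjusted p under 0.05, none of them a member.

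miR-301 and miR-301b-3p were above chicken in 3 of the 4 pairings of duck and chicken samples of like stage and number. miR-301 had 557 and 834 PMMR in duck at HH25 and 529 and 565 PMMR in duck at HH20, against 636 and 281 PMMR in chicken at HH25 and 257 and 390 PMMR in chicken at HH20. The exception was the first chicken sample at HH25, the library that stood apart in its markers. The difference was 0.74 ± 0.36 with all samples (SE, n = 4 each; limma adjusted p = 0.237). Leaving out 1 sample at a time gave 0.51 to 0.98 for miR-301. Neither miR-301 nor miR-301b-3p passed unless the first chicken sample at HH25 was left out. Without that library it was 0.98, and miR-301 passed the threshold (limma adjusted p = 0.0465), while miR-301b-3p did not (adjusted p = 0.0507). With the quail samples in the fit and that library left out, both passed (limma adjusted p = 0.042 for miR-301 and 0.0446 for miR-301b-3p).

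miR-130a and miR-130c differed least between the species. miR-130a had 1868 and 2198 PMMR in duck at HH25 and 1376 and 1562 PMMR in duck at HH20, against 1308 and 1378 PMMR in chicken at HH25 and 1353 and 1527 PMMR in chicken at HH20. Duck was above chicken in all 4 pairings, as for 24.2% of all miRNAs, but by only 1.02-fold in each pairing at HH20. After each pairing was divided by its median ratio over all miRNAs, miR-454 was the 1 member of 6 still above chicken in all 4, as were 18.3% of all miRNAs. miR-130c had 206 to 430 PMMR in duck and 198 to 361 PMMR in chicken, and its difference was 0.36 ± 0.35 (SE, n = 4 each; limma adjusted p = 0.612).

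**Figure D2:**
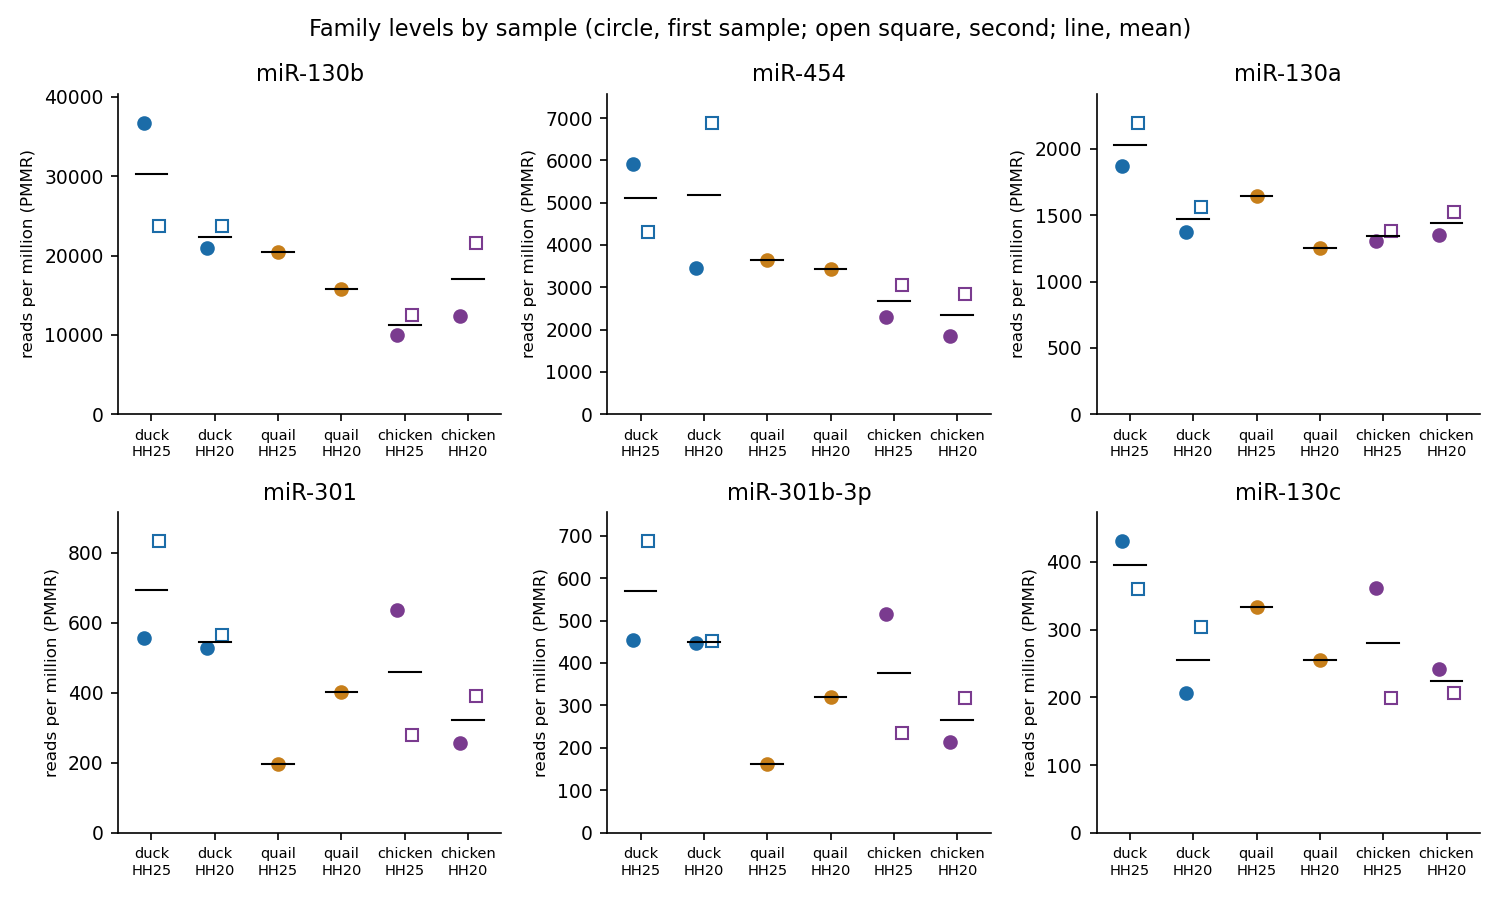
Level of each member (PMMR, linear axis from 0) by species and stage, with circles for first samples, open squares for second samples and a line at the mean. The duck samples of miR-454 all lie at or above 3462 PMMR and its chicken samples at or below 3044 PMMR, while the other members overlap.

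Over the members, the median difference of duck from chicken was 0.73 on the log2 scale, beside 0.20 over all miRNAs, of which 60.8% were positive.

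Quail lay between duck and chicken for miR-130b and miR-454 and lowest for miR-301 and miR-301b-3p. The HH25 quail sample had 3653 PMMR of miR-454 and the HH20 quail sample 3429 PMMR, and miR-130b had 20472 and 15781 PMMR. miR-301 had 197 PMMR in the HH25 quail sample, the lowest level of the 10 samples, and 404 PMMR in the HH20 one. Duck exceeded quail by 1.11 ± 0.48 in miR-301 (SE, 4 duck and 2 quail samples; limma adjusted p = 0.25) and by 1.14 ± 0.47 in miR-301b-3p (limma adjusted p = 0.231). Leaving out 1 sample at a time gave 0.41 to 1.81 for miR-301 and 0.47 to 1.81 for miR-301b-3p. Neither passed, where limma called 5.91% of all miRNAs. Between quail and chicken, where 1.08% of all miRNAs were called, no member had an unadjusted p under 0.05. miR-301 was 0.37 lower on the log2 scale in quail than in chicken, and this turned to 0.32 higher when the HH25 quail sample was left out.

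**Figure D3:**
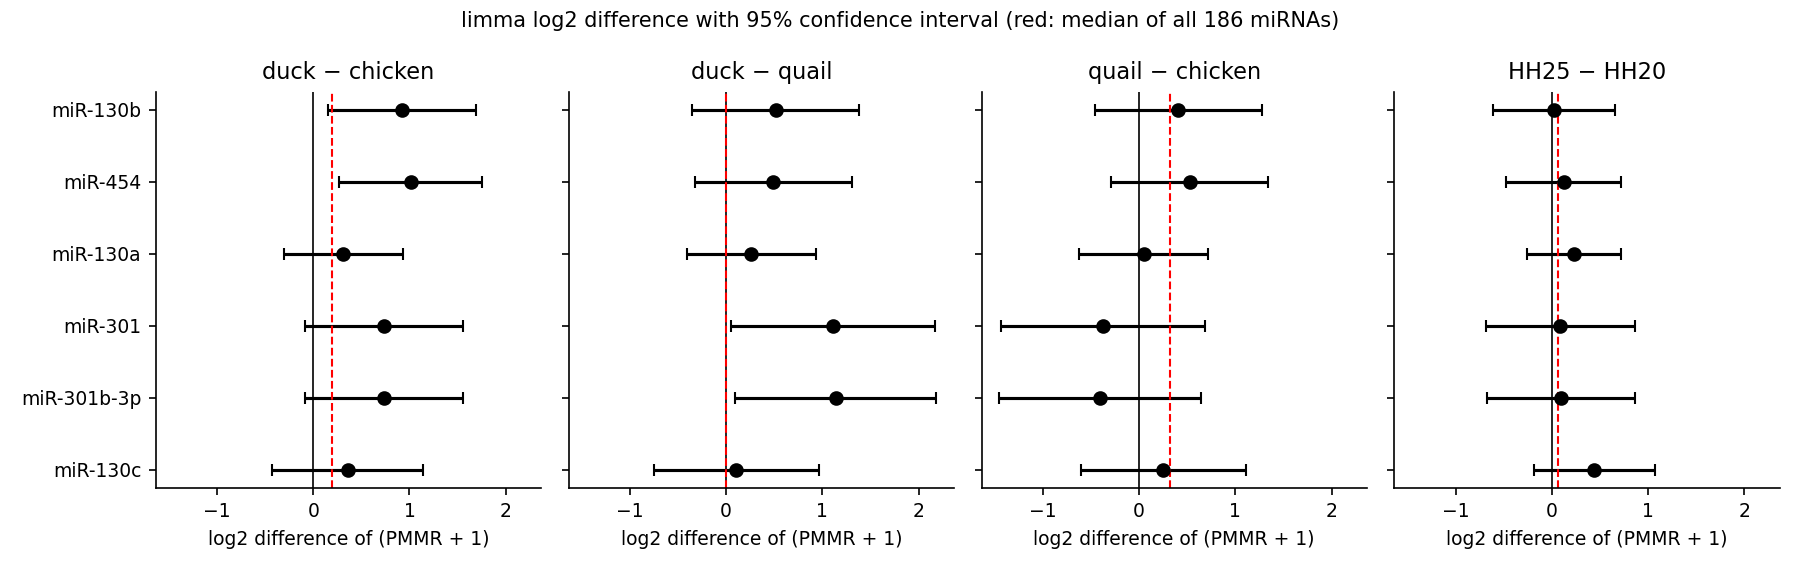
Difference of log2(PMMR + 1) by limma for each member, in 4 panels (duck minus chicken, duck minus quail, quail minus chicken, HH25 minus HH20), with 95% confidence intervals and a dashed line at the median of all miRNAs. The intervals of miR-130b and miR-454 in the first panel and of miR-301 and miR-301b-3p in the second lie above 0, but no adjusted p in these panels passed the threshold.

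No member passed the test between the stages. Across the 3 species limma called 3.23% of all miRNAs between HH25 and HH20, none of them a member. No member had an unadjusted p under 0.05 or was called by limma voom, and the member with the largest difference was miR-130c with 0.44 ± 0.28 (SE, 5 samples per stage; adjusted p = 0.402). The 95% interval of miR-130b, 0.02 with bounds of -0.62 and 0.65, leaves room for changes of about that size in both directions. Within duck (0%) and within chicken (0%) limma called no miRNA, and 9 and 21 miRNAs had an unadjusted p under 0.05, again without a member, and limma voom made no call there or at HH20.

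The contrasts of the stage changes between species did not pass for any member. miR-130a was higher at HH25 in both duck pairings and in quail, and lower at HH25 in both chicken pairings, and the stage change in duck exceeded that in chicken by 0.57 ± 0.58 (SE; limma adjusted p = 0.996). miR-301 was higher at HH25 in both duck pairings and lower at HH25 in quail, a difference of 1.35 ± 0.98 (SE; limma adjusted p = 0.9998, unadjusted p = 0.205). None of these contrasts of stage changes called any miRNA: 0% for duck against chicken, 0% for quail against chicken and 0% for duck against quail, with 1, 0 and 0 miRNAs at an unadjusted p under 0.05 and no call by limma voom. The last 2 were added after the values were seen, and rest on 1 quail sample per stage, which is assumed to vary like the other groups.

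The study itself used a fold rule, and within that set Fisher's exact test with a Bonferroni correction. It also used DESeq, and qRT-PCR of some miRNAs on second samples of duck and chicken, as checks. The fold rule alone was applied here to single libraries. It was a ratio of 2 or more in either direction with over 15 PMMR in at least 1 of both libraries. Over 9 comparisons of first samples, 13 of the 54 member ratios passed. At HH25, 2 members passed for duck against chicken (52.2% of all miRNAs did), 2 for duck against quail (34.4%) and 3 for quail against chicken (45.2%). At HH20, 2 members passed for duck against chicken (31.2%), and none for duck against quail (34.9%) or quail against chicken (32.8%). Between the stages, 1 member passed in duck (24.7%), 1 in quail (16.1%) and 2 in chicken (53.2%). Second samples gave 2 members for duck against chicken at HH25 (32.3%), 1 at HH20 (33.3%) and none between the stages in duck (28%) or chicken (34.4%). The members that passed were not the same ones in both samples. For duck against chicken at HH25, miR-130b (3.68-fold) and miR-454 (2.57-fold) passed in the first samples, and miR-301 (2.97-fold) and miR-301b-3p (2.93-fold) in the second. Every first-sample comparison with chicken at HH25 used the library that stood apart in its markers. Those were the comparisons with shares of 52.2%, 45.2% and 53.2% of all miRNAs. The single-library ratios given here carry no test.

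miR-130a had the smallest SD of all measured miRNAs across species and stages, though just below that of miR-106. Its SD of log2(PMMR + 1) over the 10 samples was 0.25, against 0.26 for miR-106 and a median of 0.81 over all miRNAs. Its highest sample was 1.75 times its lowest, a ratio that ranked 2 from the smallest. By SD, miR-130a also ranked 1 when levels were taken per 1000000 reads on the measured miRNAs. It ranked 10 when each library was centred on its median, where miR-106 had the smallest SD. miR-130c, which shares all but 1 base with it, ranked 11 by SD, while miR-130b, miR-454, miR-301b-3p and miR-301 ranked 37, 40, 57 and 61.

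**Figure D4:**
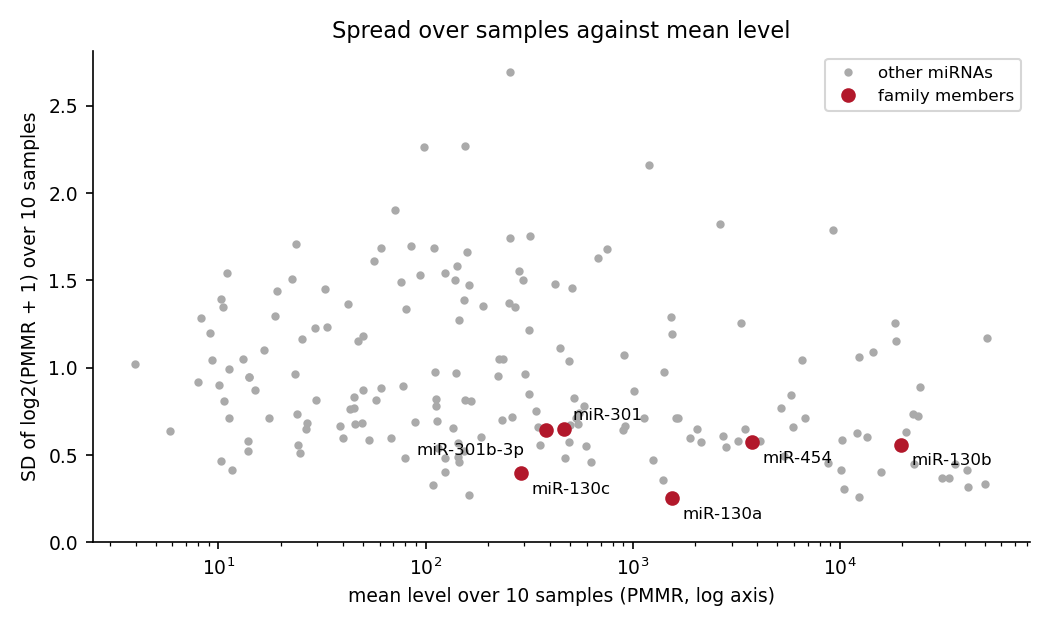
SD of log2(PMMR + 1) over the 10 samples against mean level (PMMR, log axis) for all measured miRNAs, with the 6 members in red. miR-130a lies at the lower edge with an SD of 0.25, and all members lie below the median SD of 0.81.

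miR-301 and miR-301b-3p kept nearly the same ratio in every library, although their genes are on different chromosomes. Their ratio was 1.18 to 1.26 over the 11 libraries, and the share of miR-301 in their summed reads was 54.2% to 55.8%. The pooled share of 55.0% was inside the 95% Wilson interval of all 11 libraries, which covers counting error only. The SD of the log2 ratio over the 10 samples was 0.029, the fourth smallest of the 17205 pairs of miRNAs, whose median was 1.31. The 3 pairs with a smaller SD were miR-193a* with miR-193b* and miR-204 with miR-211, each identical in sequence, and miR-16 with miR-16c, which differ by 2 bases (SD 0.027). Counting error alone would give 0.050 in the median library if the reads of each were counted separately. miR-130a and miR-130c, also 1 base apart, had a ratio of 3.62 to 7.40 and an SD of 0.32, and the median over the 17 pairs of equal length and 1 mismatch was 0.50. The reads were mapped by the authors with mismatches allowed, so that a read of miR-301 could be counted for miR-301b-3p, and the 2 values are therefore uncertain as separate measurements. The part of this in the fixed ratio was not tested. Their similar changes above count as 1 observation.

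**Figure D5:**
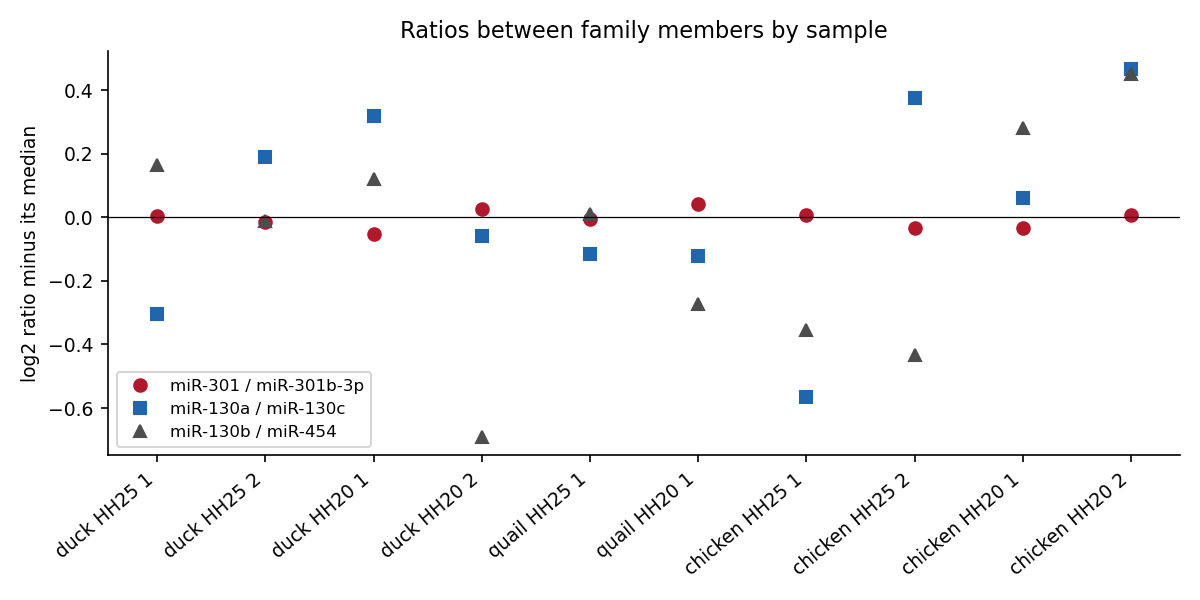
Log2 ratio of 3 pairs of members in each of the 10 samples, less the median of the pair, with duck, quail and chicken from left to right. miR-301 over miR-301b-3p (circles) stays near 0 with an SD of 0.029, while miR-130a over miR-130c (squares) spreads with an SD of 0.32 and miR-130b over miR-454 (triangles) with an SD of 0.36.

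Passenger strands of 3 of the hairpins were measured. miR-130b* was lower at HH25 than at HH20 in all 5 pairings of like species and sample number, with 384 and 462 PMMR at HH25 against 579 and 598 PMMR at HH20 in duck, 425 against 606 PMMR in quail, and 227 and 395 against 327 and 688 PMMR in chicken. The change was -0.56 ± 0.29 on the log2 scale (SE, 5 samples per stage; limma adjusted p = 0.316). The other 2 passenger strands were similar: miR-130a* and miR-301* were each lower at HH25 in 4 of the 5 pairings. Their changes were -0.56 and -0.53 (limma adjusted p = 0.46 and 0.316). The share of all miRNAs lower at HH25 in all 5 pairings was not counted. The ratio of miR-130b to miR-130b* was higher at HH25 in all 5 pairings, at 31.7 to 95.7 in HH25 samples and 26.1 to 39.7 in HH20 samples. The ratios for miR-130a* and miR-301* were each higher at HH25 in 4 of the 5 pairings.

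miR-301* was highest in the quail samples. It had 78.7 to 109 PMMR in the 4 duck samples, 181 and 351 PMMR in the 2 quail samples and 83.9 to 152 PMMR in the 4 chicken samples. Quail overlapped with neither species, but had only 2 samples. The share of all miRNAs with such a pattern was not counted. The guide strand exceeded miR-301* by 4.87 to 10.3 times in duck, 1.09 and 1.15 times in quail and 2.36 to 5.75 times in chicken. The reads given to miR-301 and to miR-301* were thus nearly equal in quail. This rests on how reads were divided between miR-301 and miR-301b-3p, which is uncertain. Duck was lower than quail in miR-301* by a log2 difference of -1.43 ± 0.38 (SE; limma adjusted p = 0.0567, unadjusted p = 0.0037), and quail was higher than chicken by 1.17 ± 0.38 (SE; limma adjusted p = 0.194). Neither passed the threshold. miR-130a* was rare, at 16.6 to 41.0 PMMR in duck, 34.9 and 49.6 PMMR in quail and 37.0 to 130 PMMR in chicken. In miR-130a*, duck minus chicken was -1.26 ± 0.50 on the log2 scale (SE, limma adjusted p = 0.156, unadjusted p = 0.0335). This did not pass the threshold. Nor did miR-301* with -0.26 or miR-130b* with 0.40 (limma adjusted p = 0.751 and 0.566). The guides miR-130a and miR-301 differed in the other direction, by 0.31 and 0.74.

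The levels of miR-130b and miR-454, neighbours on chromosome 15, had a Pearson correlation of 0.80 over the 10 samples. Other neighbours were less alike. The correlation was 0.41 for miR-454 with miR-301 and 0.39 for miR-301 with miR-130a on chromosome 15. For miR-301b-3p with miR-130c on chromosome 19 it was 0.39. Each of these less similar pairs includes miR-301 or miR-301b-3p, which are uncertain as separate measurements, so the values cannot be assigned to a chromosome. Among members of chromosome 15 that are not adjacent, it was 0.72 for miR-130b with miR-130a and 0.57 for miR-454 with miR-130a. For miR-130b with miR-301 it was 0.30. The miRNAs outside the family with the most similar profiles were miR-26a (0.91) and miR-22* (0.90) for miR-454, miR-144* and miR-23a (both 0.88) for miR-130b, miR-23b (0.82) and miR-363* (0.75) for miR-130a, and miR-15b (0.84) and miR-30a-5p (0.81) for miR-130c. miR-1662 and miR-32 came nearest to miR-301 (0.79 and 0.78) and to miR-301b-3p (0.81 and 0.77). These correlations describe samples that share libraries, species and stages.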

How the data were processed

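Small RNAs of 11 libraries from 10 samples were analysed. The authors removed adapters, mapped reads with miRanalyzer against the miRBase mature miRNAs of chicken and human with mismatches allowed, and kept miRNAs above a minimum level. The deposited values are a signal in reads per 1000000 of the library's reads after adapter removal (PMMR), with no pooling, and the total reads on the last line were left out of the miRNA values. No genome build is named in the files. PMMR times that total was a whole number, within 0.1, for all values.

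Groups were compared on the log2(PMMR + 1) scale over all miRNAs by limma (3.58.1, under R 4.3.3), with an intensity trend, Benjamini-Hochberg adjustment and a threshold of 0.05, tested on simulated data. Fold changes on this scale understate changes of low miRNAs. Sample groups came from the labels, which call second samples biological replicates. Ratios, shares and figures were made in Python 3.11.15 (pandas 2.3.3, numpy 2.4.6, scipy 1.17.1, statsmodels 0.14.6, matplotlib 3.10.9).

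The members and lists were chosen with earlier results of these data known. All members are named, with the passenger strands of their hairpins, miR-19a, miR-19b, miR-148a and miR-148b as related seeds, and the 2 other miRNAs most correlated with each member. miR-106 and the pairs set beside miR-301 and miR-301b-3p were named after their values were seen. Alternatives were other pseudocounts, scalings and filters, no trend, limma voom on recovered reads, a replicate block, single runs and leaving out each sample.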

Additional observations from a re-analysis of the deposited data

How the results depend on the processing

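Of the results above, the count of members called for duck against chicken changed with the samples used: in the fit of the 8 duck and chicken samples it was 0 to 1 when 1 sample was left out (1, miR-301, without the first chicken sample at HH25). It was 1 in the fit of all 10 samples (miR-454). That fit called 3 members (miR-301, miR-301b-3p and miR-454) without the first chicken sample at HH25, and miR-130b without the second chicken sample at HH20. The counts of members called in the other comparisons stayed at 0 under every alternative run. The share of all miRNAs called in the fits without 1 sample is not given here. The sample number goes with the number of embryos pooled. The correlations of second minus first samples between groups were -0.05 to 0.61 and not all above 0.1, so the main tests did not pair samples by number. The highest was between duck and chicken at HH20. The pairings counted above match samples by this number, as a description only. With the number as a replicate block no member was called, except miR-454 in the 10-sample fit of duck against chicken (limma adjusted p = 0.0332). The 13 member ratios past 2-fold became 7 with the second samples of duck and chicken, where quail kept its only samples. They became 7 with the mean of both samples and 8 with each library centred on its median.

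Directions turned only for differences that had not passed the test. Per 1000000 reads on the measured miRNAs, the difference of HH25 from HH20 was -0.19 for miR-130b, -0.092 for miR-454, -0.13 for miR-301 and -0.12 for miR-301b-3p, the difference of quail from chicken was -0.041 for miR-130a, and that of duck from quail was -0.10 for miR-130c. With each library centred on its median, quail minus chicken was -0.33 for miR-130a and -0.13 for miR-130c. Leaving out 1 sample at a time, the difference of HH25 from HH20 was -0.14 to 0.23 for miR-130b, -0.020 to 0.29 for miR-454, -0.14 to 0.37 for miR-301 and -0.13 to 0.36 for miR-301b-3p. In the same way quail minus chicken was -0.057 to 0.15 for miR-130a, -1.07 to 0.32 for miR-301 and -1.08 to 0.27 for miR-301b-3p. At HH20 alone, duck minus chicken was as low as -0.31 for miR-130a and -0.18 for miR-130c under other settings. The cause of these turns was not tested.

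The planned quasi-likelihood count test was not run. The deposited unit is not a count, and limma voom on the recovered reads served as the count-like alternative. With 2 samples per group at most, and 1 for quail at each stage, the intervals above are wide, and depth was not the limit for the members.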
